A study of Mus musculus with 16 samples.

Results

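The 9 genes described here act in fatty acid oxidation and were followed across cultured mouse hepatocytes exposed to lipid, to itaconate or to both. They were Eci1, Eci2, Echs1, Decr1, Decr2, Acaa2, Etfa, Etfb and Etfdh, picked by gene symbol from the 55450 genes of the table, and all 9 were expressed above the filter used for testing. Fatty acids are shortened in mitochondria by repeated rounds in which an acyl-CoA is dehydrogenated, hydrated, dehydrogenated again and cleaved. Echs1 encodes the hydratase that acts on short-chain enoyl-CoAs, and Acaa2 encodes a thiolase that carries out the cleavage. Unsaturated chains need helper enzymes: the isomerases encoded by Eci1 and Eci2 move double bonds into the position that the hydratase accepts, and the dienoyl-CoA reductases encoded by Decr1 in mitochondria and Decr2 in peroxisomes remove a double bond. The electrons taken by the acyl-CoA dehydrogenases pass to the electron-transfer flavoprotein, a dimer of the Etfa and Etfb products, and from there through the Etfdh product to ubiquinone in the respiratory chain.

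The hepatocytes came from male wild-type C57BL/6J mice aged 8 to 12 weeks. They were left untreated, given 10 mM sodium itaconate, given a defined mixture of lipids at a 10-fold dilution, or given the 2 agents together, and each treatment lasted overnight. The mixture holds saturated and unsaturated fatty acids together with cholesterol, so its effects cannot be assigned to one lipid, and all cells, the untreated ones included, were kept in serum-containing medium with insulin, transferrin and selenium. Each of the 4 groups had 4 libraries, lettered A to D, and the experiment asked whether itaconate changes the transcription of lipid-handling genes when hepatocytes are loaded with lipid. The labels do not say whether the letters are separate mice or cultures. Except where the letter was left out of the fit, p-values measure the spread between these samples that remains after differences between letters. That spread may be technical.

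Library totals ran from 22346049 to 35512004 counts with a median of 27719372, and the lowest of the 9 genes in any library still had 855 counts (Decr2). The libraries had the profile of hepatocytes: the summed level of 8 hepatocyte markers, albumin among them, was 40861 to 55888 CPM (counts scaled to the size of the library) without treatment, 40945 to 56334 CPM with itaconate, 35863 to 47536 CPM with lipid and 32154 to 52090 CPM with both agents. Of the 8, 3 were lower with lipid alone, and with itaconate present 5 were lower and 1 was higher. For 8 macrophage markers the sum was 532 to 628 CPM without treatment, 447 to 578 CPM with itaconate, 509 to 673 CPM with lipid and 542 to 616 CPM with both agents. Of the 7 that could be tested, 1 was higher and 3 were lower with lipid alone, and with itaconate present 1 was higher and 5 were lower. These marker counts stand against 23.7% of all genes lower and 23.8% higher with lipid alone. With itaconate present the share was 23.5% in each direction. Stellate cell markers summed to 16.3 to 25.6 CPM and endothelial markers to 11.2 to 22.7 CPM over all libraries. Cholangiocyte markers summed to 600 to 1171 CPM without treatment, 573 to 1048 CPM with itaconate, 336 to 609 CPM with lipid and 356 to 646 CPM with both agents. Nearly all of that sum came from Spp1 and Sox9, both lower with lipid, while Cftr was at 0 in every library and the group means of Krt7, Krt19 and Epcam were at most 0.349 CPM. The part of these markers in the results below was not tested, and in bulk RNA fewer cells of a type and less RNA per cell cannot be told apart. One library stood apart from its group: lipid + itaconate replicate B differed from replicates A, C and D by 106 to 147 times counting noise (chi-square per gene), against at most 64.5 in every other pair within a group. The lipid changes of the 9 genes in the presence of itaconate are also given without this library. Other changes that use the lipid + itaconate group are given without it only in part. Lipid + itaconate replicate C had the highest share of counts from the mitochondrial genome of all 16 libraries, 6.01%, and the part of that share in the results was not tested.

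Proximal promoters are shown for 4 genes that illustrate the directions described below: the isomerase pair Eci1 and Eci2, the flavoprotein subunit Etfa, and Decr2. They are the 250 bases before the RefSeq start on GRCm38.p6, read 5′ to 3′ on the gene's strand: chr17:24426433-24426682 on the plus strand for Eci1, and chr13:34994145-34994394, chr9:55512244-55512493 and chr17:26090165-26090414 on the minus strand for Eci2, Etfa and Decr2. Capitals mark matches on either strand to a GC box, searched as GGGCGG, to the CCAAT box, or to the core of an NRF1 element, searched as GCATGCG.
Eci1: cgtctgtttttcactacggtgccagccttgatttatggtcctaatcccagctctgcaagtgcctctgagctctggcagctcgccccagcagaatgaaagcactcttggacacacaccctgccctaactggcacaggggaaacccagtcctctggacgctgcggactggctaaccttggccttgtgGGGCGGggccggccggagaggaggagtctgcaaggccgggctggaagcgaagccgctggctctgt
Eci2: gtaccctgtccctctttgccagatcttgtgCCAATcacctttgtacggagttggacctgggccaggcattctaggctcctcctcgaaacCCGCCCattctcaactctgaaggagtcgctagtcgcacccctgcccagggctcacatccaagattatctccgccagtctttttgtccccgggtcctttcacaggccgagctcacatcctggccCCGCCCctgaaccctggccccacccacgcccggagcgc
Etfa: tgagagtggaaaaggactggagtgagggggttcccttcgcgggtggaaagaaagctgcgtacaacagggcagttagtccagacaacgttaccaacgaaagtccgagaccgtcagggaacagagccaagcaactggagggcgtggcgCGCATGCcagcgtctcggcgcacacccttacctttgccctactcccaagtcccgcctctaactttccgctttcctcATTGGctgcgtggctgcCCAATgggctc
Decr2: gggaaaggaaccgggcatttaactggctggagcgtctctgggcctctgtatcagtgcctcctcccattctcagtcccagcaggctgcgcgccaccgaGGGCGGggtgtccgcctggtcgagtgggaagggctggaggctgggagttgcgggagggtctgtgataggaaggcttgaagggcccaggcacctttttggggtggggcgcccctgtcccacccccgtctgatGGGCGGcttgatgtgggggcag
All these windows were rich in GC, from 58.8% in Etfa to 66% in Decr2, against a median of 52.4% over 32851 promoters of the same length. Of the 7 member promoters in the RefSeq table, those of Decr2, Echs1, Eci1 and Eci2 held a GC box, which 32.7% of all promoters hold. A CCAAT box was present in those of Eci2, Etfa, Etfb and Etfdh, against 33.8% of all promoters. The NRF1 core, present in 3.02% of all promoters, was found in Etfa 104 bases and in Etfdh 126 bases before the start. None of the 7 held the direct repeat bound by PPAR alpha with RXR, which is a pair of AGGTCA copies 1 base apart (0.0335% of all promoters), also with any base in the fourth place of each copy (0.338%), and none held the ERR alpha element TNAAGGTCA (1.14%) or the HNF4 alpha element CAAAGTCCA (0.384%). These counts describe the letters of the windows. The starts used for Eci1, Eci2, Echs1, Decr2 and Etfdh lie inside the longer gene spans of the annotation. The windows of Eci2 and Etfdh lie wholly within those spans, and the windows of Eci1, Echs1 and Decr2 reach into them.

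Gene positions below are on GRCm38, and each span holds a protein-coding gene. Per kilobase of transcript, Acaa2 was by far the most abundant of the 9 genes in untreated hepatocytes, at 247 ± 12.3 CPM per kb (SD, n = 4). Etfa followed at 102 ± 3.46, Etfb at 70.5 ± 4.51, Echs1 at 52.4 ± 7.48 and Eci1 at 40.7 ± 1.14 CPM per kb. The lower end was formed by Eci2 at 30.2 ± 2.31, Etfdh at 27.8 ± 2.03, Decr2 at 16.7 ± 1.06 and Decr1 at 15.1 ± 0.654 CPM per kb. The ranges of neighbours in this order did not overlap, except for Eci2 and Etfdh, at 28.1 to 33.5 and 24.9 to 29.3 CPM per kb, and those of Decr2 and Decr1 nearly met. The sum of the 9 genes was 908 ± 24.1 CPM without treatment, 939 ± 40.1 CPM with itaconate, 847 ± 17.2 CPM with lipid and 853 ± 74.5 CPM with both agents. The plot of levels by library shows each gene on its own scale.

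**Figure D1:**
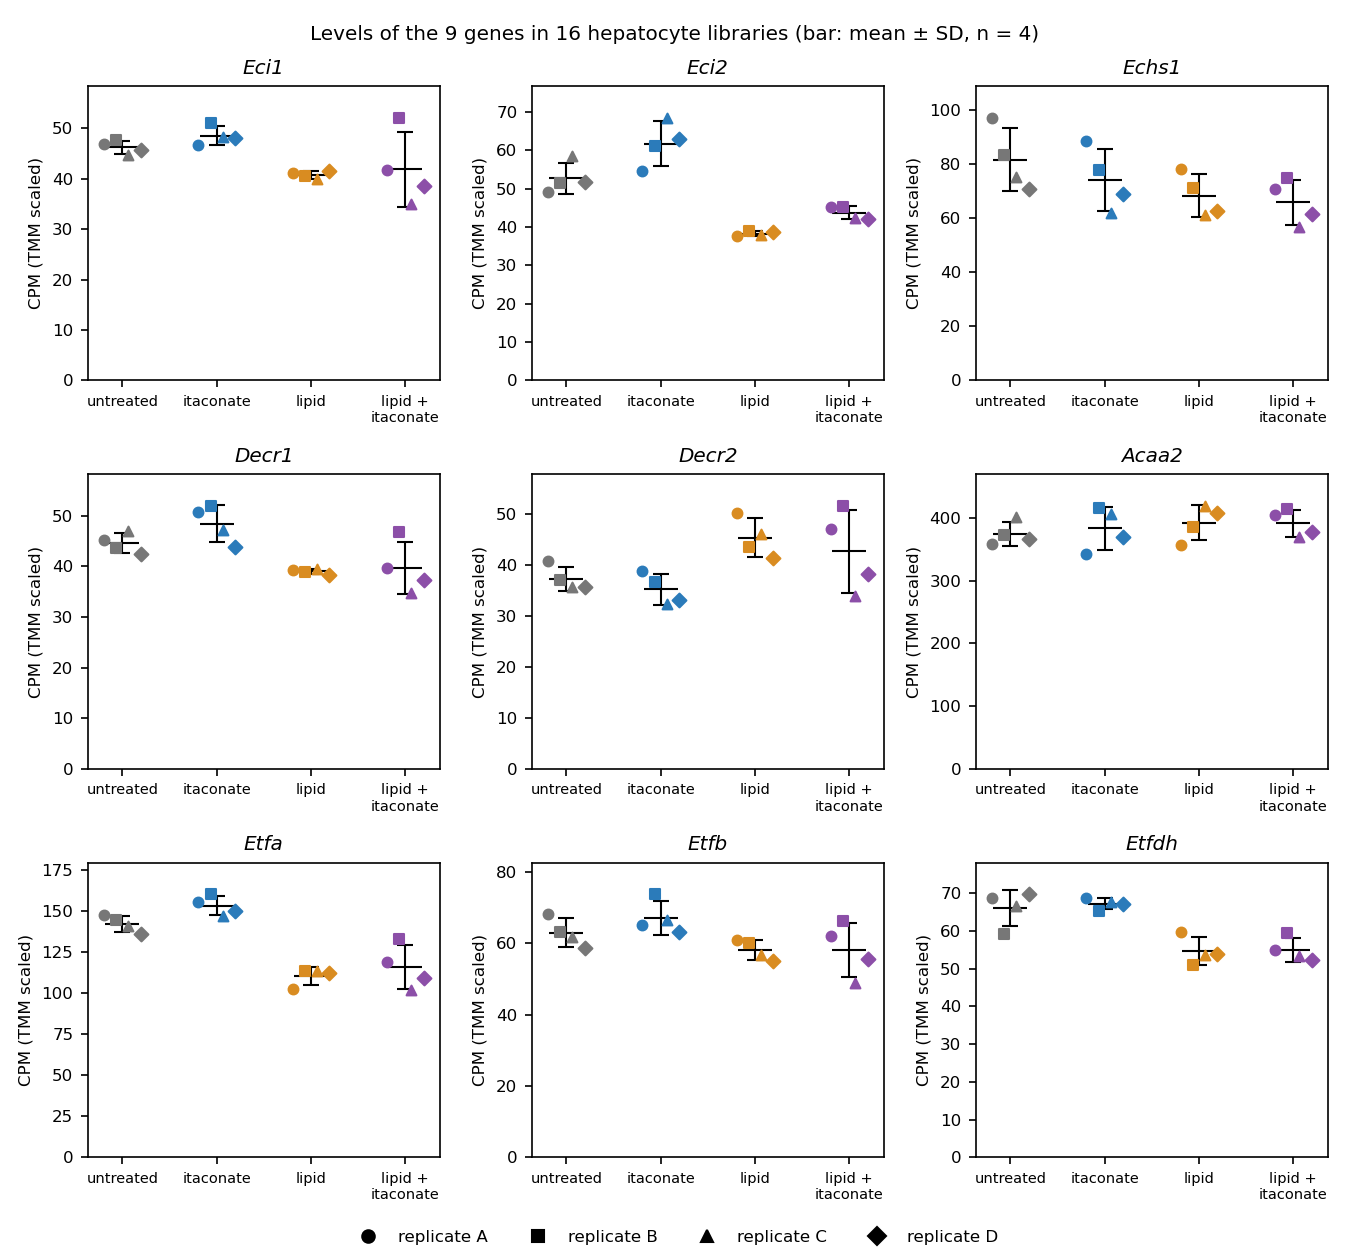
Level of each of the 9 genes in CPM (TMM scaled, vertical axis from 0) in 4 untreated, 4 itaconate-treated, 4 lipid-treated and 4 lipid + itaconate-treated libraries. Marker shapes give the replicate letter, and bars show the mean ± SD (n = 4). Eci2 and Etfa are lower and Decr2 is higher in lipid-treated than in untreated cells, with no overlap of the 4 libraries of each group.

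Lipid lowered most of these genes. In lipid-treated against untreated hepatocytes, 6 of 9 were lower and 1, Decr2, was higher (edgeR quasi-likelihood test, adjusted p under 0.05 over 11675 genes tested), while Acaa2 and Etfb were not called. Lipid changed 47.5% of all genes tested (23.7% lower and 23.8% higher), so that the 7 calls stand against a broad background. The 9 genes were chosen with earlier results of these data known, so their counts are descriptions beside these shares. Eci2 and Echs1 are among the 6 that were lower, and their values are descriptions too, for the reason given below. The median change of the 9 was -0.19 on the log2 scale, against 0.00473 over all genes. The libraries of the groups did not overlap for 5 of the 9 (Eci1, Eci2, Decr1, Decr2 and Etfa), as for 32.5% of all genes.

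The same comparison in the presence of itaconate, lipid + itaconate-treated against itaconate-treated cells, rests on the other 8 libraries. Here 7 of 9 genes were lower and Decr2 was again the 1 that was higher, and Acaa2 was not called. Eci2 and Echs1 are among those lower. Their itaconate differences, known when the list was made, use these libraries, so their values here are descriptions. Lipid against untreated shares libraries with those differences too, so the values of both genes are descriptions there as well. Of all genes, 47% were called (23.5% in each direction). The median of the 9 was -0.22, and the groups did not overlap for 3 members (Eci2, Etfa and Etfdh), as for 31.4% of all genes. Without lipid + itaconate replicate B, 8 of 9 were called as well. Fits that left out 1 library called 4530 to 5559 genes over all tested in this comparison. The replicate letter was a term in these fits. With no replicate block, 3 of 9 were called for lipid against untreated (Eci2, Etfa and Etfdh), where 35.5% of all genes were, and 4 of 9 in the presence of itaconate (Eci2, Decr1, Etfa and Etfdh), where 34.2% were. These shares of the 9 are near those of all genes.

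Among the electron-transfer genes, Etfa changed most. Etfa (chromosome 9, 55454508 to 55512243, minus strand) encodes the subunit of the flavoprotein that holds its FAD cofactor. It measured 147, 144, 141 and 136 CPM in untreated replicates A to D and 102, 113, 114 and 112 CPM in lipid-treated replicates A to D. Every lipid-treated library was below every untreated one, and Etfa fell by 0.36 on the log2 scale (SE 0.057, adjusted p = 8.90e-05), a change of -22.3%. In itaconate-treated replicates A to D it measured 155, 159.9, 147 and 149.9 CPM, and with lipid added 119, 133, 102 and 109 CPM. These groups did not overlap either, and the fall was 0.41 (SE 0.056, adjusted p = 3.71e-05). Without lipid + itaconate replicate B it was 0.46.

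Etfdh, which encodes the membrane-bound oxidoreductase that receives the electrons from the flavoprotein (chromosome 3, 79603788 to 79629500, minus strand), measured 68.8, 59.1, 66.7 and 69.7 CPM in untreated replicates A to D. The lipid-treated replicates A to D measured 59.8, 51.0, 53.6 and 54.0 CPM. Each was below the untreated library of its letter, and the groups overlapped only through untreated replicate B and lipid-treated replicate A. Etfdh fell by 0.28 (SE 0.057, adjusted p = 0.000927). The itaconate-treated libraries were tight, at 65.2 to 68.7 CPM, and those with lipid and itaconate lay below all of them at 52.2 to 59.4 CPM, a fall of 0.29 (SE 0.056, adjusted p = 0.000701), or 0.36 without lipid + itaconate replicate B.

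Etfb, which encodes the other subunit of the flavoprotein (chromosome 7, 43444083 to 43457800, plus strand), moved less than Etfa. It measured 68.3, 63.1, 61.8 and 58.6 CPM in untreated and 60.8, 60.0, 56.6 and 54.9 CPM in lipid-treated replicates A to D. The lipid-treated library was lower at each letter but the groups overlapped, with a difference of -0.12 (95% interval -0.24 to 0.01, adjusted p = 0.121). In the presence of itaconate, Etfb fell by 0.21 (SE 0.059, adjusted p = 0.00768), from 63.0 to 73.7 CPM with itaconate to 48.8 to 66.1 CPM with both. Without lipid + itaconate replicate B the fall was 0.26, and with no replicate block its adjusted p was 0.0550. The ratio of Etfa to Etfb per length was 1.45 ± 0.0466 without treatment, 1.47 ± 0.0708 with itaconate, 1.22 ± 0.103 with lipid and 1.28 ± 0.0476 with both agents, and the highest ratio with lipid, 1.34, was below the lowest without it, 1.38.

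The isomerase Eci2 had the largest change with lipid of the 9. Its product acts in mitochondria and peroxisomes (chromosome 13, 34977748 to 35027096, minus strand). Eci2 measured 49.1, 51.4, 58.4 and 51.8 CPM in untreated and 37.6, 38.9, 38.0 and 38.7 CPM in lipid-treated replicates A to D. The lipid-treated libraries were nearly level, with a coefficient of variation of 1.55%, and all lay below the untreated ones. Eci2 fell by 0.46 (SE 0.059), a change of -27.2%. With itaconate present it went from 54.6, 61.1, 68.6 and 62.9 CPM to 45.2, 45.3, 42.3 and 42.2 CPM in replicates A to D. The groups again did not overlap, and the fall was 0.49, or 0.51 without lipid + itaconate replicate B. The values of Eci2 in both lipid comparisons are descriptions. Its itaconate differences, known when the list was made, share libraries with each of them.

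Eci1, the mitochondrial isomerase (chromosome 17, 24426641 to 24439348, plus strand), changed less. It measured 46.9, 47.6, 44.7 and 45.6 CPM in untreated and 41.1, 40.5, 39.8 and 41.5 CPM in lipid-treated replicates A to D. The groups did not overlap, but the fall of 0.18 (SE 0.071) passed narrowly, with an adjusted p of 0.0461 and 0.00694 to 0.177 over 22 alternative settings, 9 of which kept the call. Lipid + itaconate-treated replicates A to D measured 41.7, 52.1, 35.0 and 38.6 CPM, against 46.6, 51.1, 48.2 and 47.99 CPM with itaconate alone. Replicate B was above every itaconate-treated library and the other 3 were below them all, with a fall of 0.22 (SE 0.070, adjusted p = 0.0169). Without replicate B the fall was 0.33, and without replicate C it was 0.15 with an adjusted p of 0.0667. Per length, the ratio of Eci2 to Eci1 was 0.743 ± 0.0755 in untreated and 0.612 ± 0.0133 in lipid-treated cells, with ranges of 0.680 to 0.851 and 0.596 to 0.625.

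Decr2 was the member that rose. The peroxisomal dienoyl-CoA reductase gene (chromosome 17, 26081208 to 26090337, minus strand) measured 40.6, 36.9, 35.7 and 35.6 CPM in untreated and 50.2, 43.5, 46.1 and 41.2 CPM in lipid-treated replicates A to D. Each lipid-treated library was above all untreated ones, by a narrow gap between lipid-treated replicate D and untreated replicate A, and the rise was 0.28 (SE 0.076, adjusted p = 0.00674), or 21.6%. In the presence of itaconate it went from 38.8, 36.7, 32.2 and 33.1 CPM to 47.1, 51.5, 33.8 and 38.1 CPM in replicates A to D. The library with lipid was higher at each letter, the groups overlapped, and the rise was 0.27 (SE 0.076, adjusted p = 0.00909). Without lipid + itaconate replicate B the rise was 0.17 (adjusted p = 0.0426), and without replicate C it was 0.35. With no replicate block neither rise of Decr2 was called (adjusted p = 0.0516 and 0.0567).

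The mitochondrial reductase Decr1 (chromosome 4, 15917240 to 15945507, minus strand) moved the other way. It measured 45.3, 43.7, 46.9 and 42.4 CPM in untreated and 39.2, 38.9, 39.5 and 38.4 CPM in lipid-treated replicates A to D. The groups did not overlap, and the fall was 0.19 (SE 0.065, adjusted p = 0.0226), a call that 17 of 22 alternative settings kept. It was lost with no replicate block and without lipid-treated replicate A or B or untreated replicate C or D (highest adjusted p 0.103). With itaconate present, Decr1 went from 50.7, 51.9, 47.3 and 43.9 CPM to 39.8, 46.7, 34.8 and 37.4 CPM in replicates A to D. Only lipid + itaconate replicate B reached into the range of the itaconate-treated libraries, and the fall was 0.29 (SE 0.064, adjusted p = 0.00174), or 0.37 without that library. The ratio of Decr2 to Decr1 per length was 1.01 to 1.19 without treatment, 0.906 to 1.02 with itaconate, 1.43 to 1.70 with lipid and 1.29 to 1.57 with both agents. Every library with lipid was above every library without it.

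Echs1, the short-chain enoyl-CoA hydratase that also acts in valine breakdown (chromosome 7, 140105710 to 140116476, minus strand), varied with the replicate letter. It measured 97.2, 83.4, 75.3 and 70.6 CPM in untreated and 78.4, 71.3, 61.0 and 62.8 CPM in lipid-treated replicates A to D. The groups overlapped, yet the lipid-treated library was lower at every letter, by 0.17 to 0.31 on the log2 scale. Echs1 fell by 0.25 (SE 0.052), and its edgeR call was lost with no replicate block (adjusted p = 0.114). In the presence of itaconate it fell by 0.17, from 61.8 to 88.4 CPM with itaconate to 56.8 to 74.9 CPM with both. Without lipid + itaconate replicate B the fall was 0.21. The values of Echs1 in both lipid comparisons are descriptions, as for Eci2. With itaconate present, its edgeR call was lost with no replicate block and without replicate A of either group (highest adjusted p 0.297). Its exons share 142 bases with those of Paox on the opposite strand. Paox stood at 8.79 CPM in untreated cells. The libraries were made with a stranded mRNA kit, but whether the counting used strand is not given in the sources used here.

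Acaa2, the thiolase, was level across the treatments. Its lowest, median and highest values were 358, 369 and 401 CPM without treatment, 342, 388 and 416 CPM with itaconate, 357, 397 and 419 CPM with lipid and 369, 391 and 414 CPM with both agents. All 4 groups overlapped. The difference with lipid was 0.07 (95% interval -0.06 to 0.19, adjusted p = 0.358), and in the presence of itaconate it was 0.03 (95% interval -0.09 to 0.16, adjusted p = 0.663), or 0.02 without lipid + itaconate replicate B.

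**Figure D2:**
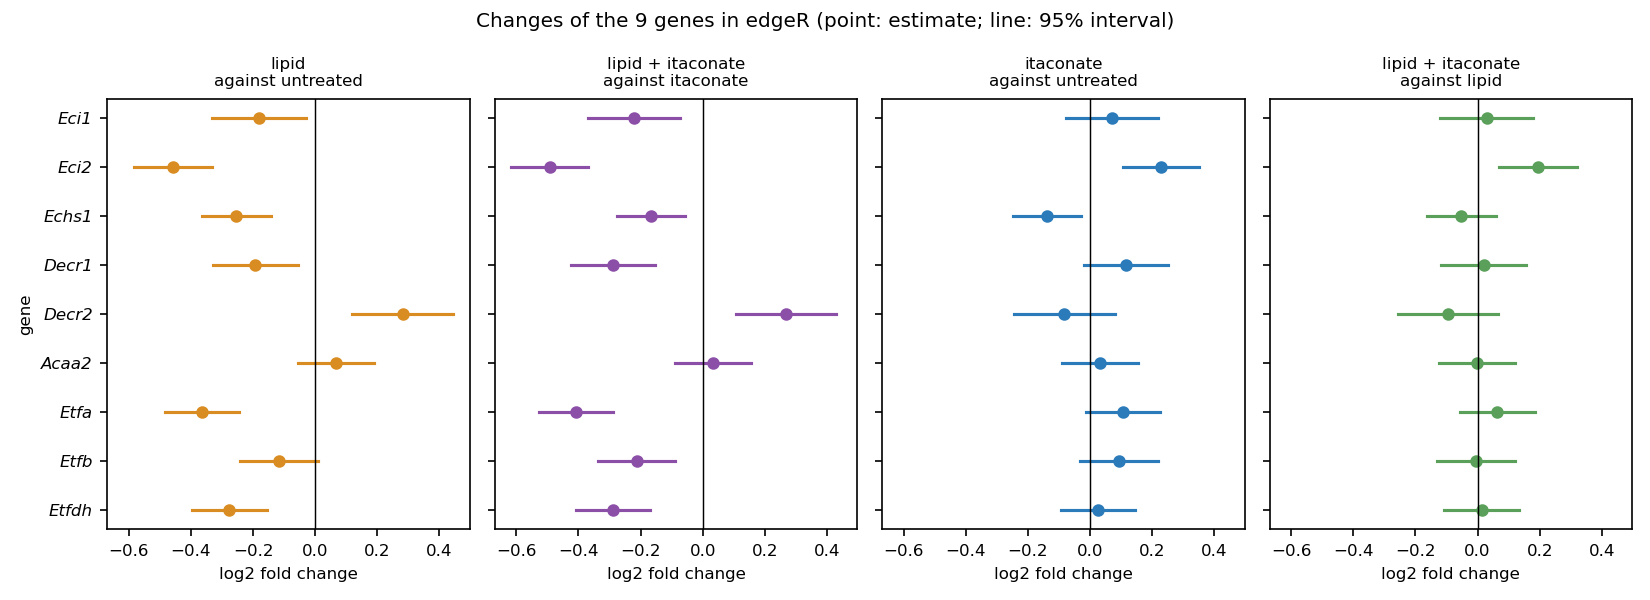
Log2 fold change of each of the 9 genes with its 95% interval in the comparisons named in the panels (edgeR, 4 libraries per group, replicate letter as a term). With lipid, Eci2 and Etfa lie furthest below 0 and Decr2 above 0, both without and with itaconate, and with itaconate all 9 genes lie between -0.14 and 0.23.

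Itaconate moved these genes little. Eci2 and Echs1 entered the list with their itaconate differences known, so those are given as descriptions, and nothing is read from the calls that include them. Of the other 7 genes, none was called by edgeR or DESeq2 in itaconate-treated against untreated cells or in lipid + itaconate-treated against lipid-treated cells, and none had an unadjusted p under 0.05 in edgeR. Over all 9 the count was 1 (Eci2) without lipid, with 4.91% of all genes called, and 0 with lipid, with 2.58% called. Leaving out any of untreated replicates A, B and D or itaconate-treated replicates B, C and D brought the first count to 0, and leaving out lipid + itaconate replicate C brought the second to 1. Over all genes, fits that left out 1 library called 149 to 1047 genes without lipid and 59 to 889 with it. Eci2 differed by 0.23 without lipid and by 0.19 with it, and was higher with itaconate at each letter in both. The 4 libraries of each group overlapped without lipid, as they did for all 9 genes (7.53% of all genes did not overlap). With lipid they did not: the lowest lipid + itaconate library was at 42.2 CPM and the highest lipid-treated one at 38.9 CPM. Over all genes, 5.82% did not overlap in that comparison, and as Eci2 was chosen with this difference known, nothing is read from it. Echs1 differed by -0.14 in the fit without lipid and was lower at all 4 letters, by 0.04 to 0.28. With lipid it differed by -0.05 and was lower at 3 of 4 letters.

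For the other 7 genes the itaconate differences without lipid were between -0.08 (Decr2) and 0.12 (Decr1), with adjusted p from 0.290 to 0.830. Etfa measured 0.11 (95% interval -0.01 to 0.22) and was higher at all 4 letters. In a fit of the 8 libraries compared Etfa was called (adjusted p = 0.0441), where 16% of all genes were, against 4.91% in the main fit. Decr1 was likewise higher at all 4 letters and Decr2 lower at all 4. With lipid present, the differences of the 7 were between -0.10 (Decr2) and 0.06 (Etfa), with adjusted p from 0.539 to 0.994. The interval for Etfdh was -0.11 to 0.13 and that for Decr2 was -0.26 to 0.06. Without lipid + itaconate replicate B, Decr2 measured -0.20, Etfa 0.01 and Eci1 -0.08, and none of the 7 was called. The lipid + itaconate group spread more widely than the lipid group for several genes, with a coefficient of variation of 17.7% against 1.76% for Eci1 and 19.0% against 8.48% for Decr2. Replicate B was the highest and replicate C the lowest of that group for 7 of the 9 genes, all but Eci2 and Etfdh.

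A term for the interaction tested whether the lipid response differed with itaconate. None of the 9 genes was called (adjusted p 0.794 to 0.984; 0 at an unadjusted p under 0.05; 0 with DESeq2), against 0.00857% of all genes. The estimates were between -0.10 (Etfb) and 0.09 (Echs1). The interval for Etfa was -0.21 to 0.13, which bounds the difference in response that these libraries allow. The interaction also equals the itaconate difference with lipid less that without it. For Eci2 and Echs1 those differences were known when the list was made. The values of Eci2 (interval -0.21 to 0.14) and Echs1 are therefore descriptions, and nothing is read from their lack of a call.

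The combined treatment against untreated cells gave 5 of 9 lower, Eci2, Echs1, Decr1, Etfa and Etfdh, and none higher, against 40.4% of all genes called (20.3% lower and 20.1% higher). The groups did not overlap for Eci2 and Etfa, as for 27.7% of all genes. Etfa fell by 0.30 and Etfdh by 0.26. Decr1 fell by 0.17 (adjusted p = 0.0417), a call kept in 12 of 22 alternatives (adjusted p up to 0.162), with 0.25 without lipid + itaconate replicate B and 0.11, not called, without replicate C. Eci2 measured -0.26 and Echs1 -0.31. Decr2 measured 0.19 (adjusted p = 0.0637), 0.09 without lipid + itaconate replicate B and 0.27, then called (adjusted p = 0.00363), without replicate C. Without lipid + itaconate replicate B, 7 of 9 were called, and with no replicate block, 3 of 9, where 28.1% of all genes were. Fits that left out 1 library called 3853 to 4807 genes over all tested. Set against itaconate-treated cells, lipid-treated cells gave 6 genes lower and 1 higher, with 55.2% of all genes called (27.3% lower and 27.8% higher), and the groups did not overlap for 7, as for 39% of all genes. Etfa was lower by 0.47 (SE 0.056, adjusted p = 5.58e-06) and Decr2 higher by 0.36. Eci2 measured -0.69 and Echs1 -0.11. Both comparisons share libraries with those above and include the itaconate differences of Eci2 and Echs1 that were known when the list was made, so the values of these 2 genes are descriptions here too.

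Across the 16 libraries, with the mean of each letter removed, 7 of the genes followed one another. Over the 36 pairs the median correlation of log2 CPM was 0.649, and 22 pairs were above 0.5. Decr1 and Etfa were the closest pair, at r = 0.933, and Etfa and Eci2 had r = 0.921. Decr2 ran against the falling genes, down to r = -0.763 with Eci2, and its highest value was with Acaa2, at 0.529. The libraries share treatments, so these values describe the treatment pattern together with the spread within groups.

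**Figure D3:**
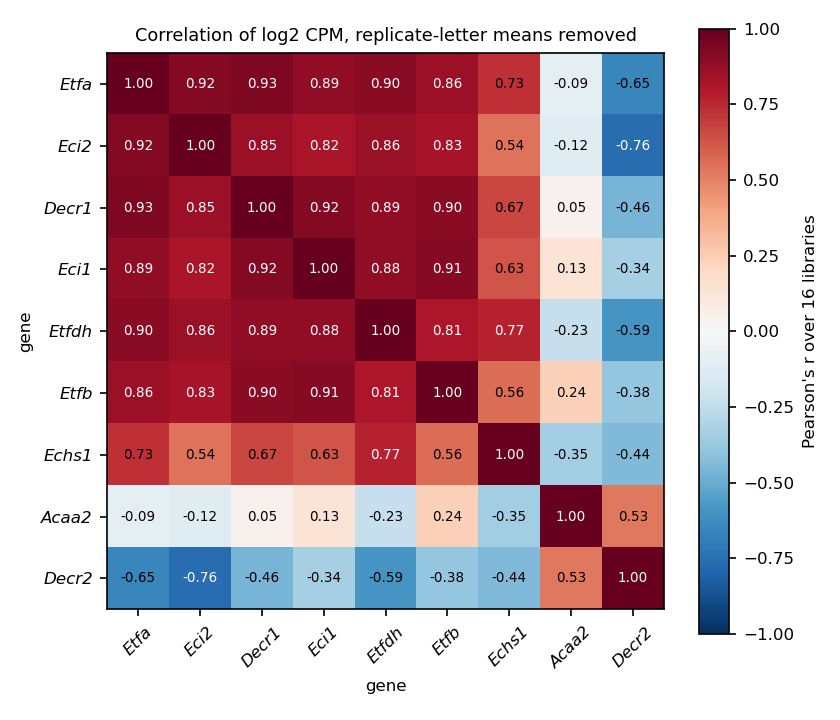
Pearson correlation of log2 CPM between each pair of the 9 genes over 16 libraries, after the mean of each replicate letter was removed (colour scale from -1 to 1). Eci1, Eci2, Decr1, Etfa, Etfb and Etfdh form a block of high values, and Decr2 is negative with every gene but Acaa2.

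The genes outside the group with the most similar pattern, measured in the same way over the 16 libraries and all genes tested, included other metabolic genes of the liver. For Etfa they were Chdh (r = 0.990), choline dehydrogenase, and Rida (r = 0.9898). For Decr1 they were Acss2 (r = 0.964), which makes acetyl-CoA from acetate, and Slc27a2 (r = 0.963), which takes up and activates fatty acids. Eci2 was nearest to Lmbrd1 (r = 0.989) and Akt1s1 (r = 0.985). Eci1 was nearest to Upb1 (r = 0.967) and Mat1a (r = 0.9603), Etfb to C4bp (r = 0.961) and Ephx2 (r = 0.957), and Etfdh to Ggact (r = 0.9605) and Aldh16a1 (r = 0.9604). Echs1 was nearest to Tmbim6 and Pmvk (r = 0.922 each), Decr2 to Zscan12 (r = 0.964) and Mrpl32 (r = 0.945), and Acaa2 to Odc1 (r = 0.889) and Katna1 (r = 0.879).

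The partners of these enzymes were read from 4 lists. With lipid, 23.7% of all genes tested were lower and 23.8% higher, and with itaconate present 23.5% in each direction. The lists were chosen with earlier results of these data known, so their counts are descriptions beside those shares. Of 13 mitochondrial partners, 7 were lower, 2 higher and 4 not called with lipid, with a median of -0.20. The largest falls were those of Acadl, the long-chain acyl-CoA dehydrogenase, and Cpt1a, which commits fatty acids to mitochondrial import, at -0.49 each (adjusted p = 1.70e-06 and 0.000523). Hadha and Hadhb, the subunits of the trifunctional protein, fell by 0.33 and 0.25. The dehydrogenases for shorter chains went the other way, with Acads at 0.18 and Acadm at 0.16, neither of which was called with no replicate block (adjusted p = 0.0835 and 0.105). With itaconate present, 7 of 13 were lower and 1 higher, and Acadm, at 0.08, was not called. The edgeR interaction was not called for Acadm either (adjusted p = 0.767).

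Of 13 further enzymes and factors that work with the electron-transfer flavoprotein, 7 were lower, 3 higher and 3 not called with lipid, with a median of -0.23. Over all genes 23.7% were lower and 23.8% higher. Etfbkmt, which encodes the methyltransferase that modifies the beta subunit, went from 58.0 ± 6.60 CPM in untreated to 23.5 ± 4.15 CPM in lipid-treated cells, a fall of 1.31 (adjusted p = 8.59e-09) and the largest in this list. With itaconate present it fell by 0.94, from 74.4 ± 12.9 to 39.1 ± 9.22 CPM. Itaconate raised it, by 0.35 without lipid (adjusted p = 0.0121) and by 0.72 with lipid (adjusted p = 0.000176), and with no replicate block neither rise was called (adjusted p = 0.375 and 0.154). The rise without lipid was also lost without untreated replicate B or D or itaconate-treated replicate C or D. Ivd, which acts in leucine breakdown, fell by 0.37 with lipid. Etfrf1, a regulator of the flavoprotein, and D2hgdh, D-2-hydroxyglutarate dehydrogenase, rose by 0.36 and 0.29 with lipid alone (for D2hgdh the adjusted p was 0.0609 with no replicate block). With itaconate present they measured 0.17 and 0.16 and were not called. The edgeR interaction was not called for either gene (adjusted p = 0.698 and 0.794), so a differing lipid response is not shown. With itaconate present 8 of the 13 were lower and 1 was higher.

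Of the peroxisomal partners, 12 of 13 could be tested. With lipid 5 were lower, 1 was higher and 6 were not called (median -0.17), against 23.7% of all genes lower and 23.8% higher. Eci3, the third isomerase gene, had at most 1 count in any library. Abcd2, a transporter of very long chains, fell by 1.37 from a low level of 1.41 CPM, and Ehhadh, the bifunctional enzyme of the peroxisome, fell by 0.79. With itaconate present 6 were lower, 1 was higher and 5 were not called.

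Of 11 tested genes usually counted as PPAR alpha targets, 8 were lower, 1 higher and 2 not called with lipid, with a median of -0.43, and 9 were lower and 1 higher with itaconate present. Over all genes 23.7% were lower with lipid, and 23.5% with itaconate present. Pdk4, which restrains pyruvate dehydrogenase, fell by 1.34, and Angptl4, an inhibitor of lipoprotein lipase, fell by 1.02. Creb3l3, a transcription factor of the fasted liver, rose by 1.06. Most partner genes named here were not called with itaconate alone, where they measured -0.16 to 0.22, or with itaconate added to lipid, where they measured -0.21 to 0.27. The exceptions besides Etfbkmt were Creb3l3, lower by itaconate in both settings (-0.29 and -0.40), and Pdk4, higher in the presence of lipid (0.47, adjusted p = 0.0122). The Pdk4 call was lost without lipid + itaconate replicate A (lowest estimate 0.38 over the alternatives), and with no replicate block none of the itaconate calls of Creb3l3 and Pdk4 was kept (highest adjusted p 0.178, 0.120 and 0.276).

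**Figure D4:**
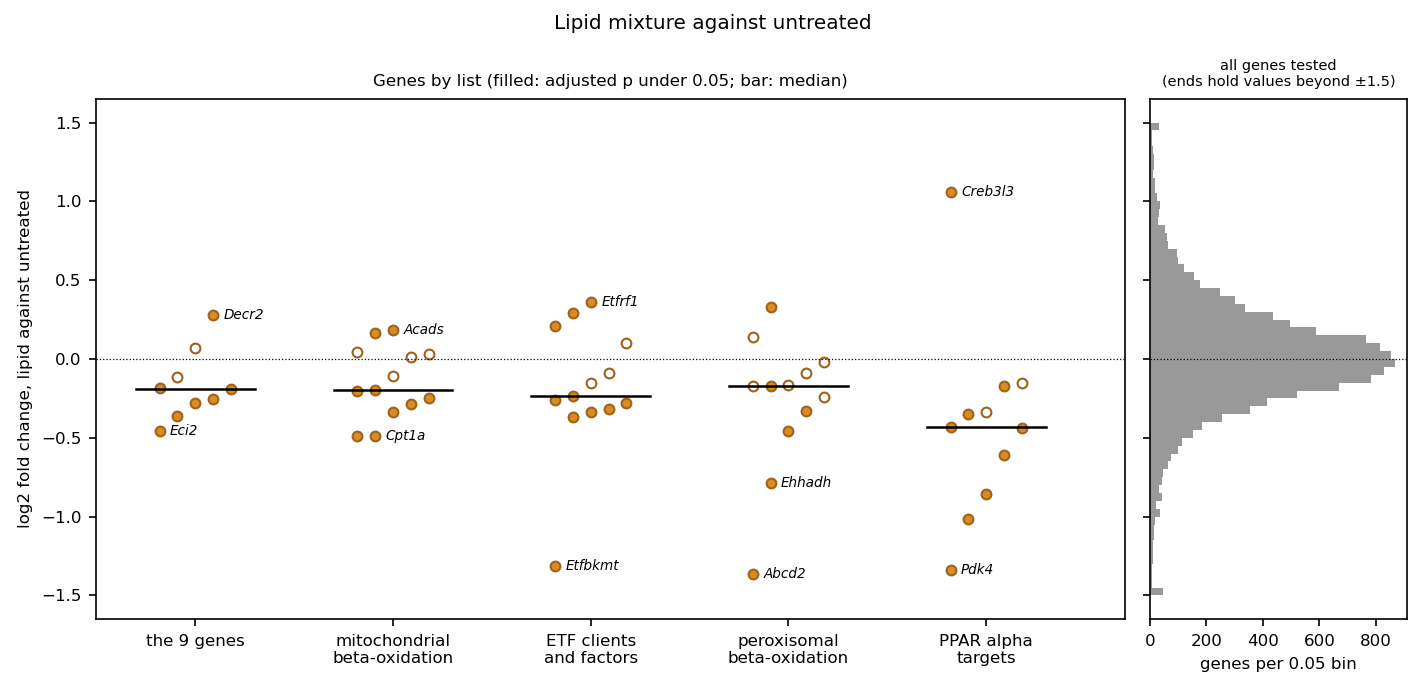
Log2 fold change of each tested gene in 4 lists of partner genes and of the 9 genes in lipid-treated against untreated hepatocytes, with filled points for genes called by edgeR at an adjusted p under 0.05, bars for medians, and a histogram of all genes tested at the right. The medians lie below 0 in every list, from -0.17 for the peroxisomal partners to -0.43 for the PPAR alpha targets, and -0.19 for the 9 genes.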

How the data were processed

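RNA-seq was done on 16 libraries of primary mouse hepatocytes, 4 for each treatment. The deposited values are expected counts per gene that the authors made with bcl2fastq 2.20, Cutadapt 1.18, STAR 2.7.0f (mm10), Picard 2.18.26 and RSEM 1.3.1, with no normalization; 5.41% of the values were not whole, and the normalization, filter and batch removal described by the study came after them. The library kit was stranded, but whether the counting used strand is not given in the sources used here. Counts were rounded for edgeR 4.0.16 (R 4.3.3). The filter was a mean CPM of 1 or more, which left 11675 genes (of 55450, all matched to GENCODE mouse release 21). After TMM scaling, the quasi-likelihood test was applied in 1 model of all libraries with treatment and replicate letter as terms, and Benjamini-Hochberg adjustment covered all genes tested (threshold 0.05). Log2 CPM used a prior count of 0.5, and levels per kilobase used the longest principal protein-coding transcript. The letters were taken to pair the libraries because libraries of the same letter deviated together from the means of their groups, with correlations of 0.143 to 0.468 in all 24 pairs, against a median of -0.114 in 72 pairs of other letters. No pair of libraries within a treatment group was a duplicate (chi-square per gene at least 10), and pairs across groups were not checked. The steps were run on simulated data that held no differences between letters, so that run cannot speak to the pairing by letter. Alternatives were DESeq2 1.42.0, another scaling, other filters, no replicate block, fits of 8 libraries and leaving out each library. The members and lists were chosen with earlier results of these data known, and the 2 partner genes with the largest rise and fall in each list among those called with lipid were named, together with Hadha and Hadhb. One gene that this rule picks is not reported here.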

Additional observations from a re-analysis of the deposited data

Results flagged for a closer look

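One level stood apart from its group: Etfa in lipid-treated replicate A, at 102 CPM, against 112 to 114 CPM in the other 3 lipid-treated libraries. Its gap to the nearest library was 0.858 of the range of the group, above Dixon's 95% critical value for 4 samples. Of 36 groups looked at (9 genes in 4 treatments) 1 was past that limit, and chance alone passes about 1 in 20. The other 3 lipid-treated libraries were also below all untreated ones.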

How the results depend on the processing

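Of the 9 genes, Etfa and Etfdh were called in both lipid comparisons under all 22 alternatives. Eci2 was too, but its values in both comparisons are descriptions. The pairing by replicate letter mattered most: with no replicate block, 3 of 9 genes were called instead of 7 for lipid against untreated (35.5% of all genes), 4 instead of 8 in the presence of itaconate (34.2%), 0 instead of 1 for itaconate against untreated (0.197%), and 3 instead of 5 for both treatments against untreated (28.1%). In a fit of the 8 libraries compared, 2 of 9 were called for itaconate against untreated (Eci2 and Etfa). That fit called 16% of all genes, against 4.91% in the main fit, and Eci2 was chosen with this difference known. Leaving out 1 library gave 5 to 8 calls for lipid against untreated, 7 to 8 in the presence of itaconate, 0 to 1 for itaconate against untreated, 0 to 1 for itaconate in the presence of lipid, 4 to 7 for both treatments against untreated, 7 to 8 for lipid against itaconate and 0 for the interaction. Over all genes these fits called 4717 to 6003 genes for lipid against untreated and 4530 to 5559 in the presence of itaconate. For both treatments against untreated they called 3853 to 4807, and for lipid against itaconate 5721 to 6806. The other comparisons follow below. The cause was not tested.

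Over all genes, 573 were called for itaconate against untreated, 23 with no replicate block, 1091 with no filter, 1865 in the fit of 8 libraries and 149 to 1047 when 1 library was left out. For itaconate in the presence of lipid these counts were 301, 9, 725, 13 and 59 to 889, with 512 by DESeq2. For the interaction 1 gene was called, 0 with no replicate block, 2 with RLE scaling, 2 with edgeR's own filter, 231 with no filter, 36 by DESeq2 and 0 to 8 when 1 library was left out.

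Log2 fold changes turned direction 32 times, none of them a call. Etfb in lipid + itaconate against lipid did so with no replicate block (8.45e-05), and otherwise it took leaving out 1 library. Over the left-out libraries the ranges in that comparison were -0.0505 to 0.0644 for Etfb, -0.0751 to 0.0984 for Eci1, -0.0576 to 0.0833 for Decr1, -0.0627 to 0.0557 for Acaa2 and -0.0601 to 0.0454 for Etfdh. Etfdh ran from -0.0234 to 0.0629 for itaconate against untreated. Acaa2 ran from -0.0275 to 0.0910 for lipid in the presence of itaconate and from -0.000700 to 0.0686 for lipid against itaconate. The interaction ran from -0.149 to 0.0287 for Eci1, -0.0950 to 0.0142 for Eci2, -0.120 to 0.0712 for Decr2, -0.0984 to 0.0235 for Acaa2, -0.105 to 0.0108 for Etfa and -0.0906 to 0.0357 for Etfdh. With 4 libraries a group, an SE of 0.052 to 0.076 limits what can be told apart for these genes in the lipid comparisons.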

Other observations

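Several of the 9 genes lie beside or over other genes. Echs1 and Paox, a polyamine oxidase, start 677 bases apart on opposite strands, and Paox fell with lipid alongside Echs1, by 0.46 on the log2 scale (edgeR, adjusted p = 0.000971), from 8.79 to 6.32 CPM. In the presence of itaconate Paox measured -0.22 (adjusted p = 0.0608). Etfdh and 4930579G24Rik start 421 bases apart on opposite strands and share 278 exon bases. That gene stood at 5.47 CPM in untreated and 4.26 CPM in lipid-treated cells, a difference of -0.36 (adjusted p = 0.0469), and at -0.22 in the presence of itaconate (adjusted p = 0.193). Eci2 shares 189 exon bases with the antisense gene Gm16984, which was at or near 0 in all groups. Etfb shares 617 exon bases with Gm45233 on its own strand, whose group means were 0.0695 to 0.303 CPM, so that reads of these genes cannot be told apart where exons overlap. The part of the overlaps in the values of the 9 genes was not tested.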
